A study of Mus musculus with 2 samples.

Results

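Pdcd1, Cd274 and Pdcd1lg2 encode the inhibitory receptor PD-1 and its ligands PD-L1 and PD-L2. They were taken by gene symbol from the count matrices, where each of the 3 genes is 1 of 32285 rows, and described in live cells sorted from subcutaneous MC38 tumors by single-cell RNA sequencing on the 10x Genomics platform. MC38 is a mouse colon cancer line. One library came from tumors of wild-type (Lmo7+/+) mice and one from tumors of mice with a genomic knockout of Lmo7 (Lmo7-/-). The study's methods give C57BL/6 background for the knockout and females of 6 to 8 weeks at inoculation. The number of mice behind each library is not given in the sources used here. The implanted cancer cells were the same line in both hosts, so the knockout concerns the host cells.

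PD-1 is a receptor that T cells put on their surface after activation and keep under lasting antigen exposure, and its engagement dampens signalling from the T cell receptor through the phosphatases SHP-2 and SHP-1. PD-L1 is made by many cell types, including tumor, endothelial and myeloid cells, and interferon gamma is a strong inducer of it through JAK kinases and IRF1. PD-L2 is made mainly by dendritic cells and macrophages, and the type 2 cytokines IL-4 and IL-13 induce it through STAT6.

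Each genotype is represented by 1 library without replicates, so the genotypes were not tested against each other and the values hold for these 2 libraries. Levels are counts per 1000000 UMIs (CPM), where a UMI marks 1 captured RNA molecule, of the counts summed over the cells of a class. Intervals are 95% intervals, exact Poisson for a level, exact binomial (Clopper-Pearson) for a share, and for a log2 ratio exact binomial from how its counts divide between the libraries. They cover counting error only, and not the spread between mice. A log2 ratio is that of the library labelled Lmo7-/- over the library labelled Lmo7+/+. A ratio was called when it was at least 2-fold, and only for genes whose counts in both libraries sum to at least 20.

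The files held 16208 droplets in the Lmo7+/+ and 15163 in the Lmo7-/- library, of which 13542 and 11860 were kept, with medians of 4535.5 and 4304.5 UMIs. The libraries shared 279 cell barcodes. The targeted gene did not separate the labels, because host cells hold hardly any Lmo7 RNA. All host cells together had 36 Lmo7 counts (Lmo7+/+) and 26 in the library labelled Lmo7-/-, and endothelial-like cells, with the highest host level examined, had 36.6 and 29.1 CPM (log2 ratio -0.33, -1.51 to 0.81). Where in the gene the deletion lies is not given in the sources used here, so counts outside it cannot check the label. Classes were named from markers. Tumor cell-like cells had 3.64 CPM of Xist, which named host classes with at least 100 cells carried at 167 to 343 CPM, and 5.34 CPM of the leukocyte gene Ptprc, although only 6 of their 14 listed markers reached 5 CPM. In the macrophage-like class 11 of 12 markers reached it, in the regulatory T-like class 7 of 7 and in the dendritic-like class 12 of 13.

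The members lie on chromosome 1 (Pdcd1, ENSMUSG00000026285, chr1:94038305-94052553, minus strand) and side by side on chromosome 19 (Cd274, ENSMUSG00000016496, chr19:29367455-29388095, and Pdcd1lg2, ENSMUSG00000016498, chr19:29410919-29471161, both on the plus strand), with 22823 bases between the ligand genes in GRCm38 (mm10). Their 250 bases upstream of the start in RefSeq (GRCm38.p6) are shown because both ligands were higher in one library across most myeloid cells. The searched motifs, on both strands, were TTC and GAA with 3 bases between them (GAS, the interferon gamma activated site), a pair of GAAA with 2 bases between them (ISRE core, bound by interferon regulatory factors) and TTC and GAA with 4 bases between them (preferred by STAT6), and a match is in capitals.
Pdcd1, chr1:94052554-94052803, minus strand: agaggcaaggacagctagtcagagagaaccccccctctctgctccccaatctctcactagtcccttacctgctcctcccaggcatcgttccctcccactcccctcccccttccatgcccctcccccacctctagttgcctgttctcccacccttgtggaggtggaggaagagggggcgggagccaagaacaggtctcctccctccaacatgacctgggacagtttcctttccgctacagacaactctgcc
Cd274, chr19:29367188-29367437, plus strand: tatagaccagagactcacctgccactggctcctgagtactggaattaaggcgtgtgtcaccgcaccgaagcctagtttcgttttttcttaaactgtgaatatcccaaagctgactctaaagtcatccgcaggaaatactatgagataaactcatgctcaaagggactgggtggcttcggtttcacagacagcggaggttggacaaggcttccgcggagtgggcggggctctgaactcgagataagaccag
Pdcd1lg2, chr19:29410669-29410918, plus strand: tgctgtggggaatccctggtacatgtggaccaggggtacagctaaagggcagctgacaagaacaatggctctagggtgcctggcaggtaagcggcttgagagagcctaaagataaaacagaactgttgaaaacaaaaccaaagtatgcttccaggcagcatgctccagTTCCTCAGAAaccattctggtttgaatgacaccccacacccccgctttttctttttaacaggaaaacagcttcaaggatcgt

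The only match was 1 copy of the STAT6 motif upstream of Pdcd1lg2, a motif held by 5.85% of 32851 promoter windows of the same length. The GAS motif was in 7.02% and the ISRE core in 2.98% of the windows, and neither was in the windows of the 3 genes. A match is a description of letters, and a window without one says only that these letters are absent from it.

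Pdcd1 was a T cell gene in these tumors. T-like cells made up 3.37% of the cells in the Lmo7+/+ library and held 75.1% (71.9 to 78.1) of its 786 Pdcd1 counts, and they made up 5.30% of the cells in the Lmo7-/- library and held 78.7% (76.4 to 80.9) of its 1320 counts. A further 13.9% of the counts in each library lay in T cells that also carried macrophage RNA, droplets that cannot be assigned to 1 cell type. Among all kept cells the Pdcd1 level was 8.30 and 17.3 CPM, a log2 ratio of 1.06 (0.93 to 1.19), while within all T-like cells it was 453 and 581 CPM, a log2 ratio of 0.36 (0.21 to 0.51).

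Among T cell subsets with at least 50 cells over both libraries, the highest Pdcd1 level was in CD8 T-like cells led by the granzyme genes Gzmg, Gzmf and Gzme, at 654 CPM (578 to 738) in the Lmo7+/+ and 813 CPM (745 to 886) in the Lmo7-/- library. Cycling CD8 T-like cells followed at 418 CPM (361 to 482) and 560 CPM (505 to 620). A small cluster led by Penk and Ccl1, with Cd4 and Cd8a cells mixed, had 407 CPM (297 to 545) and 446 CPM (350 to 559), which overlapped the cycling CD8 cells in both libraries. Gamma delta T-like cells, only 11 and 2 in number, were left out of this order and had 10 and 4 Pdcd1 counts, or 447 CPM (214 to 822) and 1512 CPM (412 to 3871). Memory-like T cells, which carry Tcf7 and S1pr1, had 230 CPM (159 to 323) and 272 CPM (187 to 382). The Lmo7+/+ intervals of memory-like and regulatory T-like cells overlapped, and so did those in the Lmo7-/- library.

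NK-like cells had no Pdcd1 count in either library, in 75 and 53 cells, where 3 counts would be 18.4 and 25.6 CPM. Macrophage-like cells had 0.399 and 0.361 CPM, tumor cell-like cells 0.179 and 0.541 CPM. In tumor cell-like cells the 5 T cell receptor genes Cd3d, Cd3e, Cd3g, Trac and Trbc2 reached 0.0819% and 0.109% of their T cell level, and Pdcd1 0.0394% and 0.0931%. The Pdcd1 log2 ratio there was 1.60 (0.45 to 2.85) on 10 and 21 counts, in a class where 1.16% of 14015 genes were at least 2-fold higher and 2.7% higher or lower, and the part of T cell RNA in it was not tested. In macrophage-like cells the T cell receptor genes were at 0.0712% and 0.0758%, and Pdcd1 at 0.0881% and 0.0621%. Pdcd1 in dendritic-like cells, at 13.7 and 15.4 CPM, was 3.02% and 2.66% of the T cell level, beside 1.98% and 1.41% for the T cell receptor genes. One dendritic cluster, with Xcr1 and Clec9a, is also led by Gzmf, and held 15 of the 17 Pdcd1 counts of the class in the Lmo7+/+ and 3 of 13 in the Lmo7-/- library.

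**Figure D1:**
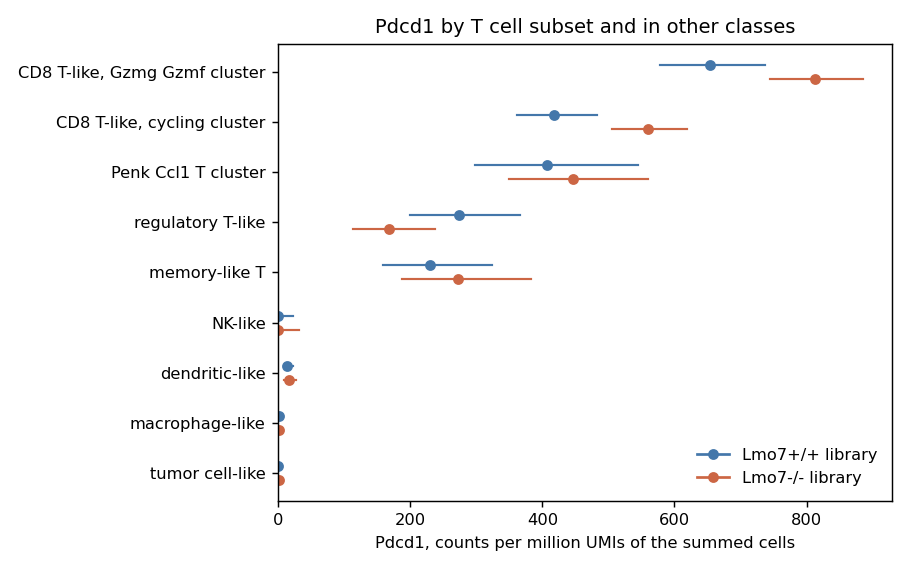
Pdcd1 level in CPM (x axis) in T cell subsets and in 4 other classes (y axis), with points for the levels and lines for the 95% counting intervals in the Lmo7+/+ and Lmo7-/- libraries. The CD8 T-like clusters lead in both libraries with 654 and 813 CPM in the Gzmg Gzmf cluster, the regulatory T-like cells are the only T cell subset shown with the higher level in the Lmo7+/+ library, and NK-like cells have no count.

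In CD8 T-like cells as a whole, Pdcd1 was 1.29-fold higher in the Lmo7-/- library, with 457 counts in 263 cells (530 CPM, 483 to 581) against 897 counts in 409 cells (683 CPM, 639 to 729). The log2 ratio was 0.37 (0.20 to 0.53), under the 2-fold rule. In this class 1.34% of the 8033 genes with enough counts were at least 2-fold higher in the Lmo7-/- library and 3.71% higher or lower, and 12.7% of them had a ratio at or above that of Pdcd1. After each cell was thinned to 1500 UMIs, 51.4% (44.6 to 58.1) of 222 cells and 61.7% (56.2 to 66.9) of 339 cells had a Pdcd1 UMI. The 41 and 70 cells with fewer UMIs were not counted, and the unthinned shares were 67.7% and 76.0%. The background in thinned tumor cell-like cells was 0 of 5578 cells, where 3 positive cells would be 0.0538%, and 5 of 3960 cells (0.126%). Cells with at least 2 Pdcd1 UMIs made up 43.7% and 54.5% of the class, and the highest cell had 12 and 15. The ratio had the same direction in the Gzmg Gzmf cluster (0.31, 0.10 to 0.53) and in the cycling cluster (0.42, 0.17 to 0.68). The dissociation stress genes, a list of 6, summed to 865 CPM in these cells in the Lmo7+/+ and to 430 CPM in the Lmo7-/- library, and their part in the Pdcd1 difference was not tested.

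Regulatory T-like cells, the Foxp3 cells that restrain other T cells, went the other way. They had 45 Pdcd1 counts in 66 cells (274 CPM, 200 to 366) in the Lmo7+/+ library and 31 counts in 77 cells (167 CPM, 114 to 237) in the Lmo7-/- library, a log2 ratio of -0.71 (-1.42 to -0.02). Here 3.54% of 3164 genes were at least 2-fold higher and 7.17% at least 2-fold higher or lower. The 10 cells with the most Pdcd1 held 62.2% and 58.1% of the counts, and after thinning 29.3% of 41 cells and 26.7% of 45 cells had a Pdcd1 UMI, with overlapping intervals. When regulatory T cells were instead taken by a Foxp3 UMI, a choice made after the data were seen, the ratio was -0.42 (-1.12 to 0.28). The log2 ratios in memory-like T cells (0.24, -0.50 to 0.98) and in the Penk Ccl1 cluster (0.13, -0.42 to 0.70) had intervals that include 0.

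Of the 6 genes of PD-1 and T cell receptor signalling, 6 had enough counts in CD8 T-like cells, none was at least 2-fold higher or lower, where 3.71% of all genes were, and their median log2 ratio was 0.17 against -0.06 over all genes tested in that class. Lck (0.18, 0.02 to 0.33), Cd247 (0.48, 0.07 to 0.90) and Cd3e (0.16, 0.04 to 0.27), parts of the receptor's signalling chain, had intervals above 0, and Ptpn11, which encodes SHP-2, had one below 0 (99.7 and 60.2 CPM, log2 ratio -0.73, -1.19 to -0.27). Of the 9 transcription factors listed as regulators of Pdcd1, 9 had enough counts in CD8 T-like cells and none was at least 2-fold different, which at a share of 3.71% over all genes says little about these 9. Tox, which sustains PD-1 in exhausted T cells, had 213 and 199 CPM (log2 ratio -0.10, -0.38 to 0.18), and Nr4a1, an early target of receptor signalling, had 292 and 218 CPM (-0.42, -0.67 to -0.17). In regulatory T-like cells 6 of the 9 had enough counts and 1 was at least 2-fold different, beside 7.17% of all genes. That gene was Tox, which had 134 and 53.9 CPM (-1.31, -2.55 to -0.17) on 22 and 10 counts. Ifng, the gene of interferon gamma, had 128 and 167 CPM in CD8 T-like cells (0.39, 0.05 to 0.73).

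Cd274 was found in nearly every class, and macrophage-like cells held most of it. They held 50.5% (49.1 to 51.9) of 4995 counts in the Lmo7+/+ library and 53.2% (52.2 to 54.2) of 9208 counts in the Lmo7-/- library. Tumor cell-like cells, with 49.0% and 39.6% of the cells, held 14.3% and 11.5% of the Cd274 counts, and monocyte-like cells 13.3% and 11.7%. Among the macrophage-like and dendritic-like clusters, mature dendritic-like cells, marked by Fscn1 and Ccr7, had the highest level in the Lmo7+/+ library, with 596 CPM (470 to 746) in 35 cells, and 554 CPM (410 to 732) in 28 cells of the Lmo7-/- library. Macrophage-like cells with Arg1, Mmp12 and the heat shock genes Hspa1a and Hspa1b had 302 CPM (268 to 338) and 575 CPM (535 to 618), so that in the Lmo7-/- library these clusters overlapped. Of the 16 classes ordered by level, the tumor cell-like class was the lowest in both libraries.

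**Figure D2:**
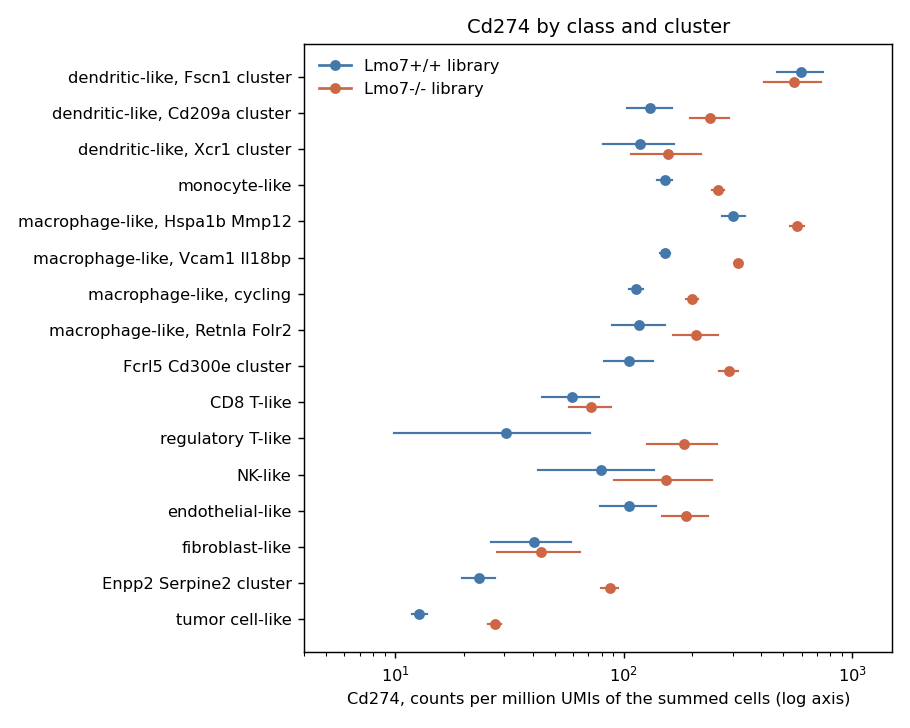
Cd274 level in CPM on a log axis, by class and cluster (y axis), with points for the levels and lines for the 95% counting intervals in the Lmo7+/+ and Lmo7-/- libraries. The Fscn1 dendritic cluster sits at 596 and 554 CPM with overlapping intervals, and each macrophage-like cluster lies higher in the Lmo7-/- library.

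In macrophage-like cells Cd274 had 2522 counts in 3055 cells (144 CPM, 138 to 149) in the Lmo7+/+ library and 4897 counts in 3330 cells (294 CPM, 286 to 303) in the Lmo7-/- library. The level was 2.05-fold higher in the latter, a log2 ratio of 1.04 (0.97 to 1.10), in a class where 1.18% of 11908 genes were at least 2-fold higher and 2.8% higher or lower. After thinning, 17.9% (16.5 to 19.3) of 2825 cells and 33.1% (31.4 to 34.8) of 2973 cells had a Cd274 UMI, beside 1.97% and 3.79% of tumor cell-like cells at the same 1500 UMIs, and without thinning the shares were 44.2% and 60.0%. The difference did not rest on a few cells, as the 10 highest cells held 4.36% and 3.10% of the counts.

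Every macrophage-like cluster had the higher Cd274 level in the Lmo7-/- library. The cluster led by H2-M2, Vcam1 and Il18bp had 152 and 317 CPM (log2 ratio 1.06, 0.97 to 1.16), the cycling cluster 113 and 199 CPM (0.82, 0.68 to 0.95), the Arg1 Mmp12 cluster a log2 ratio of 0.93 (0.74 to 1.13), and the cluster with Retnla and Folr2 117 and 208 CPM (0.83, 0.33 to 1.34). With the Lmo7-/- level recomputed for the cluster makeup of the Lmo7+/+ library, the ratio was 0.97, so the mix of clusters moved it by less than 0.1. A cluster with Fcrl5, Cd300e and Xcr1 stayed unnamed because of the genes that lead it, among them the listed dendritic gene Xcr1. This cluster had 106 and 288 CPM of Cd274 (1.44, 1.07 to 1.84). The macrophage genes C1qa, C1qb, C1qc, Apoe, Ms4a7, Adgre1 and Csf1r were at 104% and 98.5% of their macrophage-like level in it. Monocyte-like cells, with Ly6c2 and Chil3, had 151 CPM (140 to 163) and 258 CPM (243 to 274), with the log2 ratio at 0.77 (0.63 to 0.91) where 0.988% of 10120 genes were at least 2-fold higher and 2.48% higher or lower. The dissociation stress list summed to 1969 and 1631 CPM in macrophage-like cells, lower in the library with more Cd274, and its part in the difference was not tested.

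Dendritic-like cells were less uniform. As a class they had 172 CPM (150 to 197) and 233 CPM (201 to 268), with the log2 ratio at 0.44 (0.15 to 0.72), in a class where 1.56% of 7711 genes were at least 2-fold higher and 4.53% higher or lower. The Cd209a cluster had 130 and 238 CPM (0.87, 0.43 to 1.31), while the mature cluster had a log2 ratio of -0.11 (-0.65 to 0.43) and the Xcr1 cluster 0.40 (-0.34 to 1.13). With the strict cell filter, which left 28 and 16 dendritic-like cells, the ratio of the class was -0.33 (-0.97 to 0.28).

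In tumor cell-like cells Cd274 was low and also 2.13-fold higher in the Lmo7-/- library. They had 715 counts in 6634 cells (12.8 CPM, 11.8 to 13.7) and 1057 counts in 4695 cells (27.2 CPM, 25.6 to 28.9), a log2 ratio of 1.09 (0.95 to 1.23), where 133 of 14015 genes had a ratio as high, Cd274 included. The direction was the same in the cycling cluster (345 and 631 counts, 1.17, 0.98 to 1.37), in the cluster with Cdsn and the hypoxia gene Car9 (355 and 392 counts, 0.94, 0.73 to 1.15) and in the cluster with Cnih2 and Hoxc10 (15 and 34 counts, 1.58, 0.67 to 2.56). Droplets of the Cnih2 Hoxc10 cluster differed in quality, with medians of 2038 UMIs and a mitochondrial share of 0.246%. The cycling and Car9 clusters had medians of 5057 and 8508 UMIs and shares of 7.03% and 6.97%. The 7 macrophage genes C1qa, C1qb, C1qc, Apoe, Ms4a7, Adgre1 and Csf1r were all detected in tumor cell-like cells and summed to 173 and 153 CPM. That was 0.999% and 0.734% of their macrophage level, and Cd274 was at 8.88% and 9.25% of its macrophage level. The part of macrophage RNA in the Cd274 of tumor cell-like cells was not tested. A cluster led by Enpp2 and Serpine2, with the chromosome profile of the tumor cells but with fibroblast genes among its leading genes, was left unnamed. It had 23.2 CPM (19.7 to 27.2) and 87.0 CPM (79.6 to 94.9), with the log2 ratio at 1.91 (1.64 to 2.18), and its 10 highest cells held 32.9% and 24.6% of the Cd274 counts. The cluster was unlike between the libraries. Its tumor genes Krt14, Krt16 and Mmp10 summed to 122 CPM (Lmo7+/+) and 46.3 CPM (Lmo7-/-), or 106% and 37.0% of the tumor cell-like level. Its cells had medians of 5348 and 7460 UMIs. The part of this different makeup in the ratio was not tested.

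Among stromal cells, endothelial-like cells had 106 CPM (78.9 to 139) and 187 CPM (148 to 234), with the log2 ratio at 0.82 (0.30 to 1.36), where 3.02% of 6251 genes were at least 2-fold higher and 6.89% higher or lower. The macrophage genes in them were at 2.91% and 2.93% of the macrophage level, and Cd274 at 73.6% and 63.5%, and the part of macrophage RNA was not tested. Fibroblast-like cells had 40.3 CPM (26.3 to 59.1) and 43.4 CPM (27.8 to 64.5), with the log2 ratio at 0.11 (-0.76 to 0.96), where 3.4% of 6771 genes were at least 2-fold higher and 8.33% higher or lower. Among T cells, CD8 T-like cells had 59.1 CPM (44.0 to 77.8) and 71.6 CPM (57.9 to 87.6) of Cd274 (0.28, -0.23 to 0.80). Memory-like T cells had 133 CPM (79.8 to 207) and 173 CPM (107 to 265), the former overlapping macrophage-like cells of the same library. Regulatory T-like cells had 5 Cd274 counts in 5 cells and 34 counts in 21 cells, or 30.4 CPM (9.88 to 71.0) and 183 CPM (127 to 256), with the log2 ratio at 2.59 (1.23 to 4.30) that 2 of the 3164 genes reached, Cd274 included. After thinning 0 of 41 cells and 10 of 45 cells (22.2%, 11.2 to 37.1) had a Cd274 UMI, and 3 positive cells of 41 would be 7.32%. The macrophage genes were at 1.41% and 0.751% of the macrophage level in them, and the part of macrophage RNA in the difference was not tested.

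**Figure D3:**
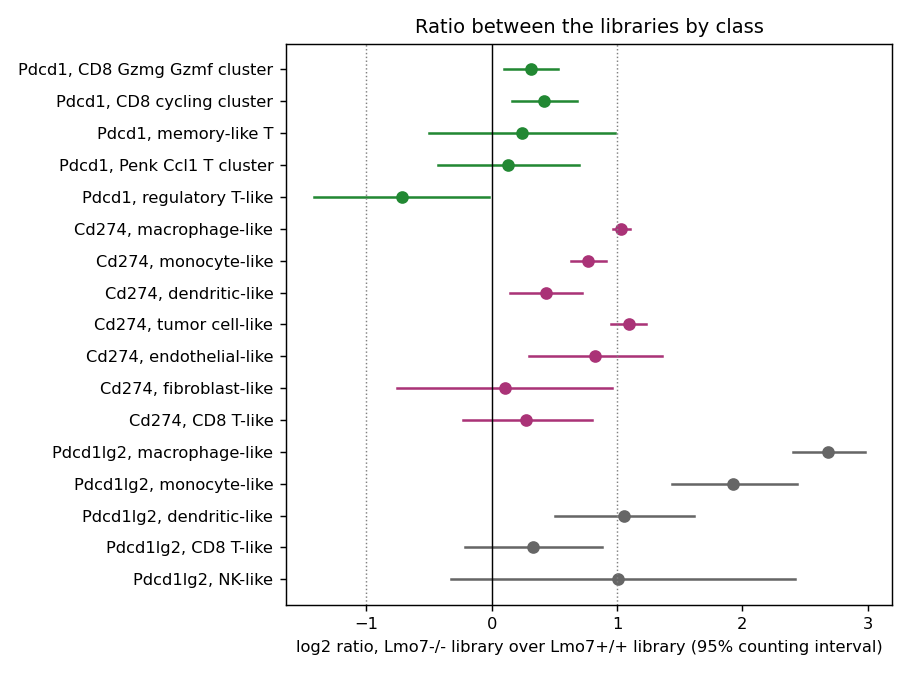
Log2 ratio of the Lmo7-/- library over the Lmo7+/+ library (x axis) for the members in selected classes and T cell clusters (y axis), with points for the ratios and lines for their 95% counting intervals. Not every class is drawn for every member, and Cd274 in regulatory T-like cells (2.59, 1.23 to 4.30) is not shown. Dotted lines mark 2-fold. The Pdcd1 points stay within 2-fold in the T cell rows shown, Cd274 is near 1 in macrophage-like and tumor cell-like cells, and Pdcd1lg2 reaches 2.69 in macrophage-like cells.

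Over all kept cells, Pdcd1lg2 had the fewest counts of the members and the highest ratio. The Lmo7+/+ library held 355 counts and the Lmo7-/- library 1241 (log2 ratio 2.12, 1.95 to 2.29), and macrophage-like cells held 33.8% (28.9 to 39.0) of the former and 59.0% (56.2 to 61.7) of the latter. T-like cells held 20.6% (16.5 to 25.1) and 9.02% (7.49 to 10.8), and dendritic-like cells 13.8% (10.4 to 17.8) and 5.56% (4.35 to 6.98). Non-immune cells hardly carried it. Tumor cell-like cells had 7 and 10 counts (0.125 and 0.258 CPM), endothelial-like cells 0 and 1, and fibroblast-like cells 0 and 0, where 3 counts would be 4.65 and 5.42 CPM.

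In macrophage-like cells Pdcd1lg2 had 120 counts (6.84 CPM, 5.67 to 8.18) in the Lmo7+/+ library and 732 counts (44.0 CPM, 40.9 to 47.3) in the Lmo7-/- library, 6.44-fold higher, with a log2 ratio of 2.69 (2.41 to 2.98). Only 5 of the 11908 genes in this class had a ratio as high, counting Pdcd1lg2 itself. After thinning, 24 of 2825 cells (0.850%, 0.545 to 1.26) and 164 of 2973 cells (5.52%, 4.72 to 6.40) had a UMI of it, beside 1 of 5578 (0.0179%) and 3 of 3960 (0.0758%) tumor cell-like cells. Cells with at least 2 UMIs were 0.426% and 4.68% of the class before thinning, and the highest cell had 3 and 7.

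The ratio was high in every macrophage-like cluster, with 8.24 and 53.4 CPM in the Vcam1 Il18bp cluster (2.70, 2.34 to 3.07), 4.02 and 23.9 CPM in the cycling cluster (2.58, 1.98 to 3.22), 14.2 and 65.5 CPM in the Arg1 Mmp12 cluster (2.21, 1.38 to 3.14) and 6.04 and 38.5 CPM in the Retnla Folr2 cluster (2.67, 0.85 to 5.10, on 3 and 15 counts). Holding the cluster makeup fixed gave 2.62. Monocyte-like cells had 10.3 CPM (7.50 to 13.8) and 39.1 CPM (33.3 to 45.5), with the log2 ratio at 1.93 (1.44 to 2.43). Among 10120 genes of the monocyte-like class, 0.988% were at least 2-fold higher and 2.48% higher or lower. The Fcrl5 Cd300e cluster had 6.13 and 16.8 CPM on 4 and 23 counts, with an interval from -0.09 to 3.45.

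The highest Pdcd1lg2 level of the named clusters was again in mature dendritic-like cells, at 212 CPM (140 to 308) and 294 CPM (192 to 431), with the log2 ratio at 0.47 (-0.36 to 1.31). The Cd209a dendritic cluster had 25.5 CPM (14.6 to 41.3) and 80.2 CPM (55.6 to 112), with the log2 ratio at 1.66 (0.76 to 2.61), and the Xcr1 cluster had 14.3 and 13.7 CPM on 4 and 3 counts. Dendritic-like cells together had 39.4 CPM (29.1 to 52.1) and 82.0 CPM (63.8 to 104), with the log2 ratio at 1.06 (0.51 to 1.62). In this class 1.56% of 7711 genes were at least 2-fold higher and 4.53% higher or lower. The ratio fell under 2-fold with some processing changes, given below.

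PD-L2 RNA was also present in lymphocytes. CD8 T-like cells had 52.2 CPM (38.1 to 69.8) and 65.5 CPM (52.4 to 80.9), with the log2 ratio at 0.33 (-0.21 to 0.88), and 6.31% (3.49 to 10.4) and 8.26% (5.56 to 11.7) of the thinned cells had a UMI. That level was 763% of the macrophage-like level in the Lmo7+/+ library and 149% in the other. The macrophage genes were at 1.21% and 0.848% of the macrophage level in these cells, and the part of macrophage RNA was not tested. NK-like cells had 55.1 CPM (25.2 to 105) and 111 CPM (59.1 to 190), regulatory T-like cells 79.1 CPM (42.1 to 135) and 59.3 CPM (29.6 to 106), and the Penk Ccl1 cluster 127 CPM (69.3 to 213) and 72.3 CPM (37.3 to 126), all on 9 to 14 counts per library. The intervals of the log2 ratios of these 3 groups include 0. In the Lmo7+/+ library the order from the Penk Ccl1 cluster down to dendritic-like cells had overlapping neighbours at each step, and macrophage-like cells were 10th of 16, while in the Lmo7-/- library they were 7th.

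**Figure D4:**
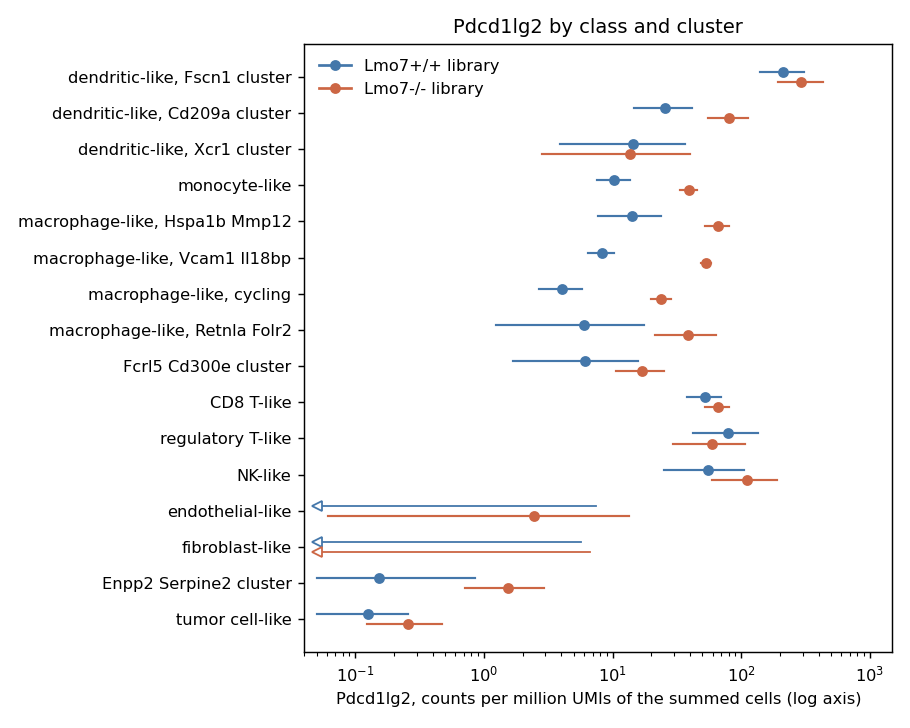
Pdcd1lg2 level in CPM on a log axis, by class and cluster (y axis), with points for the levels, lines for the 95% counting intervals which are cut off near the left edge, and open arrows where no count was seen, in the Lmo7+/+ and Lmo7-/- libraries. Macrophage-like and monocyte-like cells lie higher in the Lmo7-/- library without overlap, the CD8 T-like intervals overlap, and tumor cell-like cells lie at 0.125 and 0.258 CPM.

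Cells with 1 ligand were compared with cells with the other. Among thinned macrophage-like cells of the Lmo7-/- library, 40.2% (32.7 to 48.2) of the 164 cells with a Pdcd1lg2 UMI and 32.7% (30.9 to 34.5) of the 2809 cells without one had a Cd274 UMI. In the Lmo7+/+ library the shares were 20.8% (7.13 to 42.2) of 24 cells and 17.9% (16.4 to 19.3) of 2801. The intervals overlapped in both libraries.

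Genes of the route from interferon gamma to Cd274 are given next. In macrophage-like cells 6 of the 7 genes had enough counts, none was at least 2-fold higher or lower, where 2.8% of all genes were, and the median log2 ratio was 0.11 against -0.10 over all genes of the class. The receptor genes Ifngr1 (0.01, -0.08 to 0.09) and Ifngr2 (-0.09, -0.16 to -0.02) and the kinase gene Jak1 (0.01, -0.07 to 0.09) were near 0. TMM scaling adds 0.10 to each ratio of this class, which turns that of Ifngr2 from below to above 0. Irf1, which binds the Cd274 promoter, had 159 and 300 CPM (0.91, 0.85 to 0.98), and the feedback inhibitor Socs1 had 32.8 and 56.0 CPM (0.77, 0.62 to 0.92). In tumor cell-like cells Irf1 had 397 and 515 CPM (0.37, 0.35 to 0.40), Socs1 had a log2 ratio of 0.07 (0.01 to 0.14), and Ifngr1 (-0.24, -0.34 to -0.15) and Ifngr2 (-0.37, -0.48 to -0.27) had intervals below 0. In endothelial-like cells 6 of the 7 genes had enough counts and 1 was at least 2-fold different, where 6.89% of all genes were. That gene was Ifngr1 (-1.01, -1.74 to -0.31, on 60 and 25 counts), and Irf1 had a log2 ratio of 0.06 (-0.17 to 0.29). Cmtm6, whose protein keeps PD-L1 at the cell surface, had 119 and 149 CPM in macrophage-like cells (0.32, 0.24 to 0.41) and 23.2 and 19.9 CPM in tumor cell-like cells (-0.22, -0.35 to -0.09). It is 1 of 2 listed PD-L1 protein partners. Neither was at least 2-fold different in macrophage-like and tumor cell-like cells, where 2.8% and 2.7% of all genes were. In endothelial-like cells Cmtm6 had 77.2 and 165 CPM (1.10, 0.50 to 1.71), where 3.02% of all genes were at least 2-fold higher. In fibroblast-like cells Irf1 had a log2 ratio of 0.63 (0.40 to 0.86), and Cd274 had one of 0.11 (-0.76 to 0.96) on only 26 and 24 counts.

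For the type 2 route to Pdcd1lg2, Il4 had no count in any T-like cell of either library and Il13 had 2 and 7, and the mast-like cells, only 7 and 20 in number, had 2 and 2 counts of Il4 and 1 and 8 of Il13. In macrophage-like cells 3 of the 5 listed genes had enough counts, with Il4ra at 0.02 (-0.06 to 0.09), Il13ra1 at -0.20 (-0.36 to -0.05) and Stat6 at -0.16 (-0.27 to -0.04). With the TMM shift of 0.10 the intervals of Il13ra1 and Stat6 include 0, and that of Il4ra lies above 0. Of the 9 genes listed as IL-4 responses of macrophages, 9 had enough counts, 3 were at least 2-fold higher, none was at least 2-fold lower, and their median log2 ratio was 0.25, beside 1.18% of all genes at least 2-fold higher and a median of -0.10 over all genes of the class. Those 3 were Retnla (55.9 and 244 CPM, 2.13, 2.03 to 2.23), Arg1 (49.6 and 166 CPM, 1.74, 1.63 to 1.86) and Ccl24 (10.5 and 41.7 CPM, 1.99, 1.76 to 2.24), while Mrc1 (0.01, -0.06 to 0.08) and Mgl2 (0.08, 0.04 to 0.12) were within 0.1 of 0. In monocyte-like cells 8 of the 9 had enough counts, 2 were at least 2-fold higher and 1 lower, beside 2.48% of all genes higher or lower. Arg1 had 105 and 783 counts (2.97, 2.67 to 3.27) and Ccl24 41.1 and 132 CPM (1.69, 1.44 to 1.94). Chil3, a listed monocyte marker, had 132 and 58.7 CPM (-1.17, -1.39 to -0.95). The 2 listed binding partners of the ligands, Cd80 for PD-L1 (33.2 and 33.4 CPM, 0.01, -0.16 to 0.18) and Rgmb for PD-L2 (12.5 and 13.0 CPM, 0.06, -0.21 to 0.34), differed by less than 0.1 in macrophage-like cells.

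**Figure D5:**
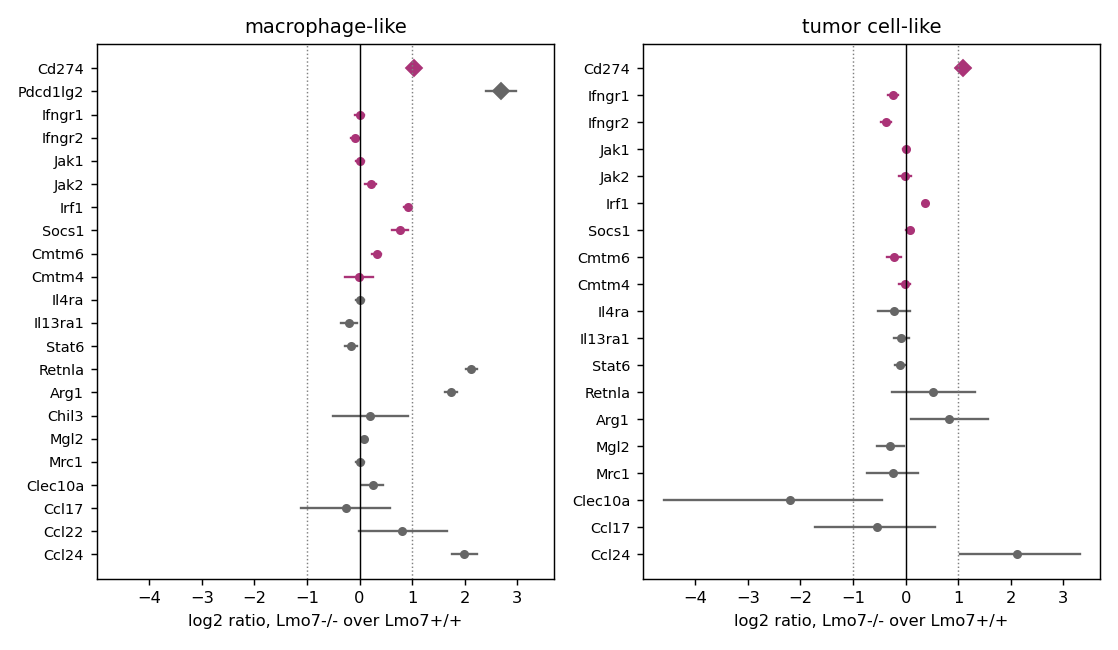
Log2 ratio of the Lmo7-/- library over the Lmo7+/+ library (x axis) for the ligands (diamonds), the interferon gamma route and PD-L1 partners (purple) and the type 2 route and IL-4 responses (gray), in macrophage-like cells (left) and tumor cell-like cells (right), with lines for 95% counting intervals and dotted lines at 2-fold. In macrophage-like cells Irf1 and Socs1 lie at 0.91 and 0.77, Retnla, Ccl24 and Arg1 lie with Pdcd1lg2 beyond 1, and the receptor genes lie near 0.

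Genes with the most similar pattern were sought among 7431 genes over 32 sums, 16 classes in each library, by Pearson's r of log2(CPM + 1). The sums of a library share its cells, depth and free RNA, so r is a description. For Pdcd1 they were Cd3g (0.94), Cd6 (0.94), Trac (0.94), Cd8a (0.94) and Cd3d (0.93), all T cell genes. For Cd274 they were Trafd1 (0.85), Pde4b (0.84), the guanylate-binding protein gene Gbp8 (0.83), Cmtm6 (0.80) and Kctd12 (0.79). For Pdcd1lg2 they were Dgat1 (0.91), Rgs2 (0.89), Map4k1 (0.89), Zmiz2 (0.88) and Nabp1 (0.88). The ligands had an r of 0.43 with each other, and with Pdcd1 Cd274 had -0.02 and Pdcd1lg2 0.52.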

How the data were processed

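The authors deposited raw UMI counts per gene and cell for 2 libraries, without normalization. The submitters' processing notes name Cell Ranger 2.1.1 and mm10. Droplets were kept from 500 genes and 1000 UMIs up, with a mitochondrial share of 15% or less, since the values of the study's own limits are not given in the sources used here. Cells of both libraries were log-normalized and clustered together (2000 variable genes without the members, 30 principal components, Louvain at resolution 0.5), and lymphoid, myeloid and dendritic clusters were clustered again. Genes of the pathway lists were not left out of the variable genes. Clusters were named from marker lists, with limits set after the data were seen. Doublets were kept. Scrublet marked 3.01% and 2.86%.

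Counts were summed per class and library, and CPM and log2 ratios were computed from the sums, with no test. Ratios against a library with no count are not given. The named genes are the members, pathway lists (binding partners, PD-1 signalling, regulators of Pdcd1, interferon gamma route, PD-L1 protein partners, type 2 route, IL-4 response), the 5 genes most like each member, and genes leading clusters. One listed gene is not reported here. The members and lists were chosen with earlier results of these data known. The log2 ratio and its interval were tested on simulated counts, and the other steps were not. Python 3.11.15, scanpy 1.11.5 and R 4.3.3 with edgeR 4.0.16 (TMM only) were used.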

Additional observations from a re-analysis of the deposited data

Results flagged for a closer look

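Pdcd1 had opposite directions in T cell subsets under the same contrast, with a log2 ratio of 0.37 in CD8 T-like cells and of -0.71 in regulatory T-like cells, and neither counting interval included 0. The difference between these ratios was not tested, since each genotype has 1 library. The value in regulatory T-like cells rests on 45 and 31 counts.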

How the results depend on the processing

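The 8 log2 ratios were recomputed under 11 or 12 single changes each, which gave 95 values. Of these values 90 stayed within the counting interval of the reported value, 4 moved out of it and 1 changed sign. The alternatives were lenient and strict cell filters, doublets left out, lower and higher resolution, 20 principal components, members allowed among the variable genes, TMM scaling, thinning, per-cell means and cells with UMIs of another lineage left out. Other ways to take CD8 and regulatory T cells, counting in the Fcrl5 Cd300e or Enpp2 cluster and leaving out the mature dendritic cluster were added after the data were seen.

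Cd274 in dendritic-like cells was -0.33 with the strict filter, which left 28 and 16 of these cells, and 0.18 to 0.68 otherwise. The lowest of the latter, 0.18 (-0.19 to 0.56), was with cells holding UMIs of another lineage left out, on 174 and 126 cells. Its interval included 0. Cd274 in tumor cell-like cells was 1.34 at lower resolution and also 1.34 with the Enpp2 cluster counted in, and 0.86 as the mean of the per-cell CPM. Cd274 in macrophage-like cells was 1.14 with TMM, which shifted the ratios of this class by 0.10. With the lenient filter it was 0.989 (0.917 to 1.06), under the 2-fold rule. Pdcd1 in regulatory T-like cells ranged from -1.20 to -0.42, and 6 of 11 intervals included 0. Pdcd1 in CD8 T-like cells ranged from 0.28 to 0.43, and Pdcd1lg2 in macrophage-like cells from 2.58 to 2.80. Pdcd1lg2 in dendritic-like cells ranged from 0.76 to 1.53. Its values under the 2-fold rule were those with the strict filter (0.76, -0.08 to 1.60), as the mean of the per-cell CPM (0.78) and at lower resolution (0.97). With at least 50 counts, the share of genes at least 2-fold higher was 0.522% in CD8 T-like, 1.18% in regulatory T-like, 0.732% in macrophage-like, 0.427% in monocyte-like, 0.507% in dendritic-like, 0.574% in tumor cell-like, 1.27% in endothelial-like and 2.01% in fibroblast-like cells.

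No paired analysis was possible because each genotype has 1 library, so leaving out a library leaves no contrast. In regulatory T-like, memory-like T and NK-like cells, under 100 cells per library, depth limits the members to 45 or fewer counts per library.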

Other observations

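A neutrophil-like cluster led by S100a8 and S100a9 held 16 Lmo7+/+ cells and 1 Lmo7-/- cell, and had 24 Cd274 counts in the former (854 CPM) and 1 Pdcd1lg2 count. Mast-like cells, 7 and 20 in number and led by the mast cell protease genes Mcpt2 and Mcpt1, had 3 and 10 Pdcd1lg2 counts (102 and 183 CPM) and no Pdcd1 count. T cells with macrophage RNA, 100 and 134 droplets, had 158 and 203 CPM of Pdcd1 and 123 and 225 CPM of Cd274.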
